A study of Mus musculus with 16 samples.

Results

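The presynaptic vesicle cycle genes comprise 39 genes whose proteins fill, dock, fuse and retrieve the transmitter vesicles of the nerve terminal. The genes were chosen by symbol, with earlier results of these data known. All probe sets that the platform annotation gives to those symbols alone were taken, whatever their values. The 39 genes had 104 of the 45037 probe sets on the array, and 90 probe sets of 38 genes passed the filter on low intensity, among 27044 that passed in all. Sv2c had a single probe set, with intensities of at most 48.6 on the 16 arrays, and did not pass. One further probe set, shared by Vamp1 and another gene, was left out.

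In the synaptic vesicle cycle, transporters load vesicles with transmitter, synapsins and active zone scaffolds hold them near the release site, and a complex of SNARE proteins on the vesicle and the plasma membrane drives fusion when calcium binds a synaptotagmin. The ATPase NSF with its SNAP adaptors then takes the SNARE complex apart, and dynamin, endophilin, amphiphysin and synaptojanin retrieve the membrane. CREB is a transcription factor that binds the cAMP response element (CRE) in the promoters of activity-regulated neuronal genes, and synaptic plasticity in the hippocampus is known to draw on it.

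RNA of mouse hippocampus was hybridised to 16 Affymetrix Mouse Genome 430 2.0 arrays, and each array held a pool from 3 to 4 mice of 1 age, sex and genotype. The group at 3 weeks off doxycycline (dox) comprised 3 pools of tetO-VP16-CREB C57BL/6J mice, and its control group 3 pools of wild-type littermates, all 6 weeks old, raised on dox and taken off it for the last 3 weeks. The group at 1 week off dox comprised 2 pools of tetO-VP16-CREB C57BL/6J mice against 2 pools of wild-type littermates, 3 weeks old, taken off dox for the last week. The A-CREB group comprised 3 pools of TetO-A-CREB-95 C57BL6 F1/J mice against 3 pools of wild-type littermates, 6 weeks old and never given dox. All 16 samples carry the strain label C57BL/6J. VP16-CREB joins CREB to the activation domain of a herpesvirus protein and activates CRE-driven transcription without an upstream signal. A-CREB is a dominant negative peptide that binds CREB and keeps it from DNA. Both transgenes need a second transgene for the dox-regulated transactivator, and in the published lines it is driven by the Camk2a promoter in forebrain principal neurons, which the labels do not state. The transgene would then act in excitatory neurons, while a pool holds the RNA of all hippocampal cells. The early A-CREB arrays named in the design text were not analysed here.

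Values were intensities scaled to 1 trimmed mean of 500 on every array. The cohort at 3 weeks off dox stood apart, with median intensities of 118.9 to 129.3 on its 6 arrays against 75.0 to 93.2 on the other 10, and each transgenic group was compared only with its own littermates. Xist intensities were 63.4 in A-CREB replicate 1 and 34.5 in its control replicate 1 and at least 3611 on all other arrays, so both of those pools had the low level of males. Of 5 probe sets of Creb1, the gene of CREB itself, 2 were called higher in VP16-CREB mice at both times (1421582_a_at and 1452529_a_at), and the other 3 had log2 differences of -0.22 to 0.14 at 3 weeks. Probe set 1421582_a_at read 1139.9, 1097 and 1266 in the VP16-CREB pools, against 67.3, 32.2 and 61.2 in the control pools at 3 weeks off dox and 735 and 991 in the VP16-CREB pools, against 5.38 and 36.4 in the control pools at 1 week. The transgenic pools were higher without overlap at both times (adjusted p = 6.1e-05 and 0.00143), and because the controls read near background, the log2 difference depended on the setting, at 3.95 to 4.57 and 4.22 to 5.93 over the alternatives. In the A-CREB cohort it read 20.3, 74.3 and 30.5 in the A-CREB pools, against 52.7, 85.1 and 29.6 in the control pools.

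At 3 weeks off dox, 1 of the 90 member probe sets passed the test (1.11%), a probe set of the vesicle membrane gene Syngr1 that rose 2.79-fold. Over all probe sets 3.93% were called (1062 of 27044, with 886 or 3.28% higher and 176 or 0.651% lower), so the share among the vesicle cycle genes was below that of the array. Tests were moderated linear models in limma with Benjamini-Hochberg adjustment over all 27044 probe sets, called at an adjusted p under 0.05, and log2 differences are of the intensity plus 10. No member was called at its probe set of highest mean intensity. At those 38 probe sets the log2 differences ran from -0.60 for Cplx2 to 0.45 for Syt4, and 29 of 38 were negative (76.3%, against 52% of all probe sets). Their median was -0.13, against -0.014 over all probe sets tested. Over all 12732 genes at their probe sets of highest mean, 50.1% were negative and the median was -0.00046.

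Without the test's adjustment, 14 of the 90 probe sets had a p under 0.05 (15.6%, against 13.5% of all probe sets), 12 of them lower (13.3%, against 4.51% of all probe sets). In 19 of the 90 probe sets (21.1%) every VP16-CREB pool lay below every control pool, against 12.8% of all probe sets, and in 7 (7.78%) every VP16-CREB pool lay above, against 14.9%. The count of members with a negative difference was 23 of 38 without control replicate 2, with a median of -0.042, and 33 of 38 without VP16-CREB replicate 1. The median was -0.067 without VP16-CREB replicate 2, -0.080 without VP16-CREB replicate 3 and -0.21 without control replicate 3. The half-width of a member's 95% interval had a median of 0.38, and for 35 of the 38 members the interval lay within 1 log2 unit of 0.

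At 1 week off dox, 0 of the 90 member probe sets passed limma's test, against 0.237% of all probe sets (64 of 27044), and the smallest adjusted p among them was 0.916. At an unadjusted p under 0.05 there was 1 (1.11%, against 5.27% of all probe sets). At the probe sets of highest mean, log2 differences ran from -0.39 for Syn3 to 0.38 for Slc17a6, with a median of -0.047 (0.018 over all probe sets), and 26 of 38 were negative (68.4%, against 47% of all probe sets). Over all 12732 genes at their probe sets of highest mean 52.7% were negative, with a median of -0.014. Without control replicate 1 the members' count was 19 of 38 and their median -0.0063, and without VP16-CREB replicate 2 the count was 21 of 38. With 2 pools a group, 21 of 90 probe sets (23.3%) had both VP16-CREB pools below both control pools, against 12.9% of all. In 8 of 90 (8.89%) both VP16-CREB pools lay above both control pools, and the share of all probe sets with that order is not given here.

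In A-CREB mice, 0 of the 90 member probe sets passed limma's test, as did 0% of all probe sets (0 of 27044). At an unadjusted p under 0.05 there was 1 (1.11%, against 4.33% of all). At the probe sets of highest mean, log2 differences ran from -0.50 for Bin1 to 0.30 for Rab3b, with a median of -0.028 (0.0031 over all probe sets). Positive and negative differences were about equally frequent, with 20 of 38 members negative (52.6%, against 49.4%), and the median turned positive without control replicate 3 (0.024) or without A-CREB replicate 2 (0.029). The pools did not overlap in 6 of 90 probe sets (6.67%, against 6.82% of all).

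**Figure D1:**
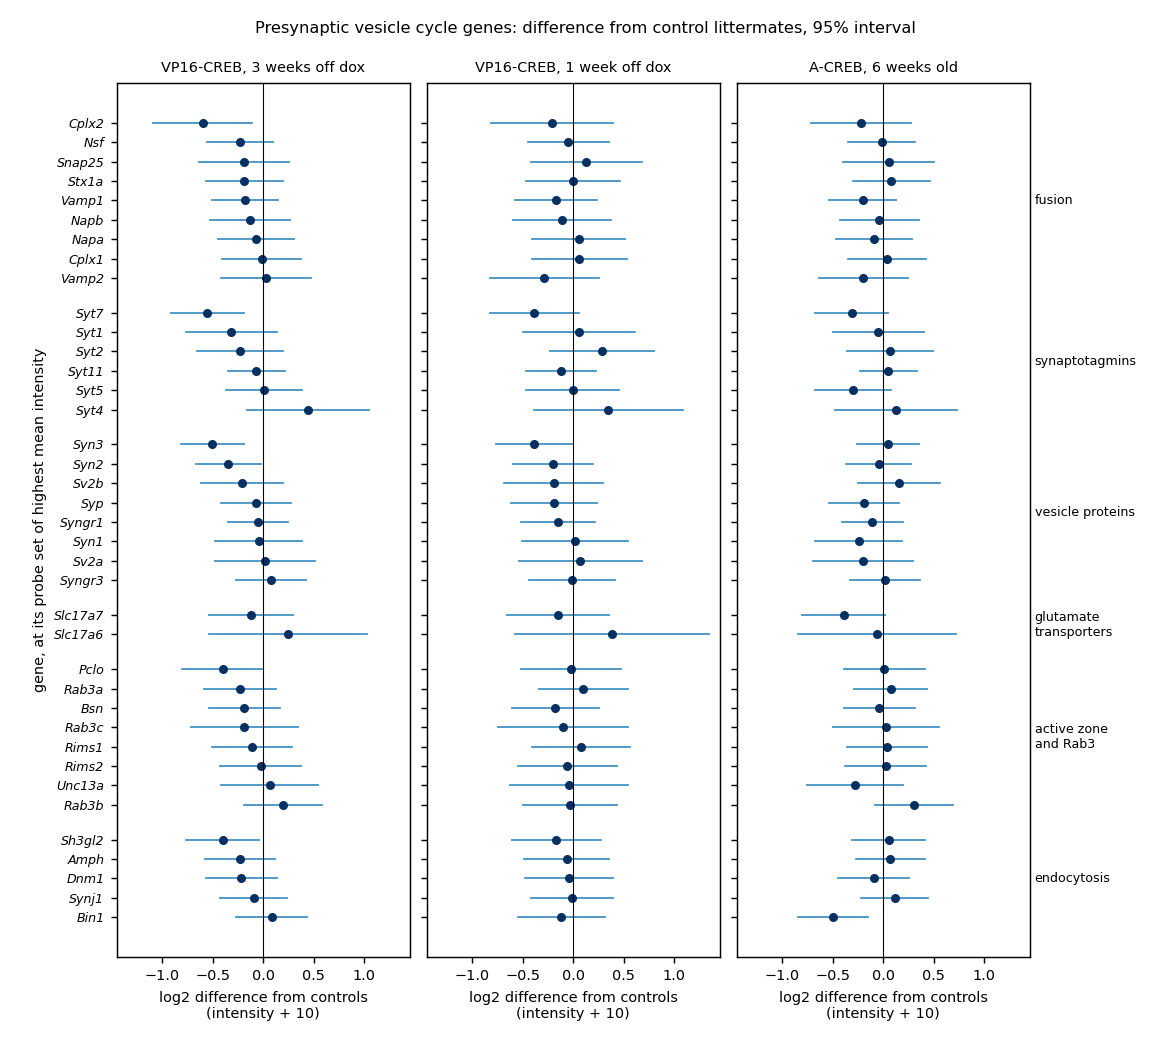
Log2 difference from control littermates (x axis, intensity plus 10) of the 38 vesicle cycle genes that passed the filter, each at its probe set of highest mean intensity, grouped by role down the page, in the 3 comparisons. Points are differences and lines their 95% intervals; points run from -0.60 to 0.45 in VP16-CREB mice at 3 weeks, from -0.39 to 0.38 at 1 week and from -0.50 to 0.30 in A-CREB mice, and none passed the adjusted test at these probe sets.

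The called probe set belongs to Syngr1, on chromosome 15, which encodes synaptogyrin 1, a membrane protein of synaptic vesicles. Probe set 1419289_a_at read 1210.5, 1073 and 1371 in the VP16-CREB pools, against 483, 404 and 402 in the control pools at 3 weeks off dox. All 3 VP16-CREB pools were above all 3 controls, by more than the spread within either group. The means were 1218 ± 149 in VP16-CREB pools and 429.7 ± 46.3 in controls (SD, n = 3 each), and the log2 difference was 1.48 (SE 0.38, adjusted p = 0.0468), with a 95% interval of 0.66 to 2.30. The same probe set read 601 and 775 in the VP16-CREB pools, against 441 and 338 in the control pools at 1 week, again without overlap, with a log2 difference of 0.81 (SE 0.47, adjusted p = 1). In the A-CREB cohort it read 452, 739.6 and 205 in the A-CREB pools, against 352, 611 and 247 in the control pools, and the groups overlapped (log2 difference 0.12, 95% interval -0.70 to 0.95).

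The other Syngr1 probe set that passed the filter, 1434661_at, did not follow. It read 3692, 3579.6 and 3181 in the VP16-CREB pools, against 3497, 4100.1 and 3259 in the control pools at 3 weeks off dox. The groups overlapped, and the log2 difference was -0.051 (SE 0.14, adjusted p = 0.951), with a 95% interval of -0.35 to 0.25. A rise of the size seen at the first probe set is therefore outside the interval of the second. The call at the first probe set sat close to the threshold: its adjusted p was 0.104 to 0.179 when any 1 of the 6 arrays was left out, while the log2 difference stayed between 1.39 and 1.57. As a sign of RNA quality, the actin probe sets at the 3' end of the transcript were brighter than those at the 5' end by a factor of 1.44 to 1.61 in the VP16-CREB pools and 1.36 to 1.56 in the controls of that comparison. The factor was less even in the other cohorts. It was 1.40 to 2.00 in the 1-week cohort, highest in control replicate 2. In the A-CREB cohort it was 1.37 to 2.48, highest in A-CREB replicate 3.

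**Figure D2:**
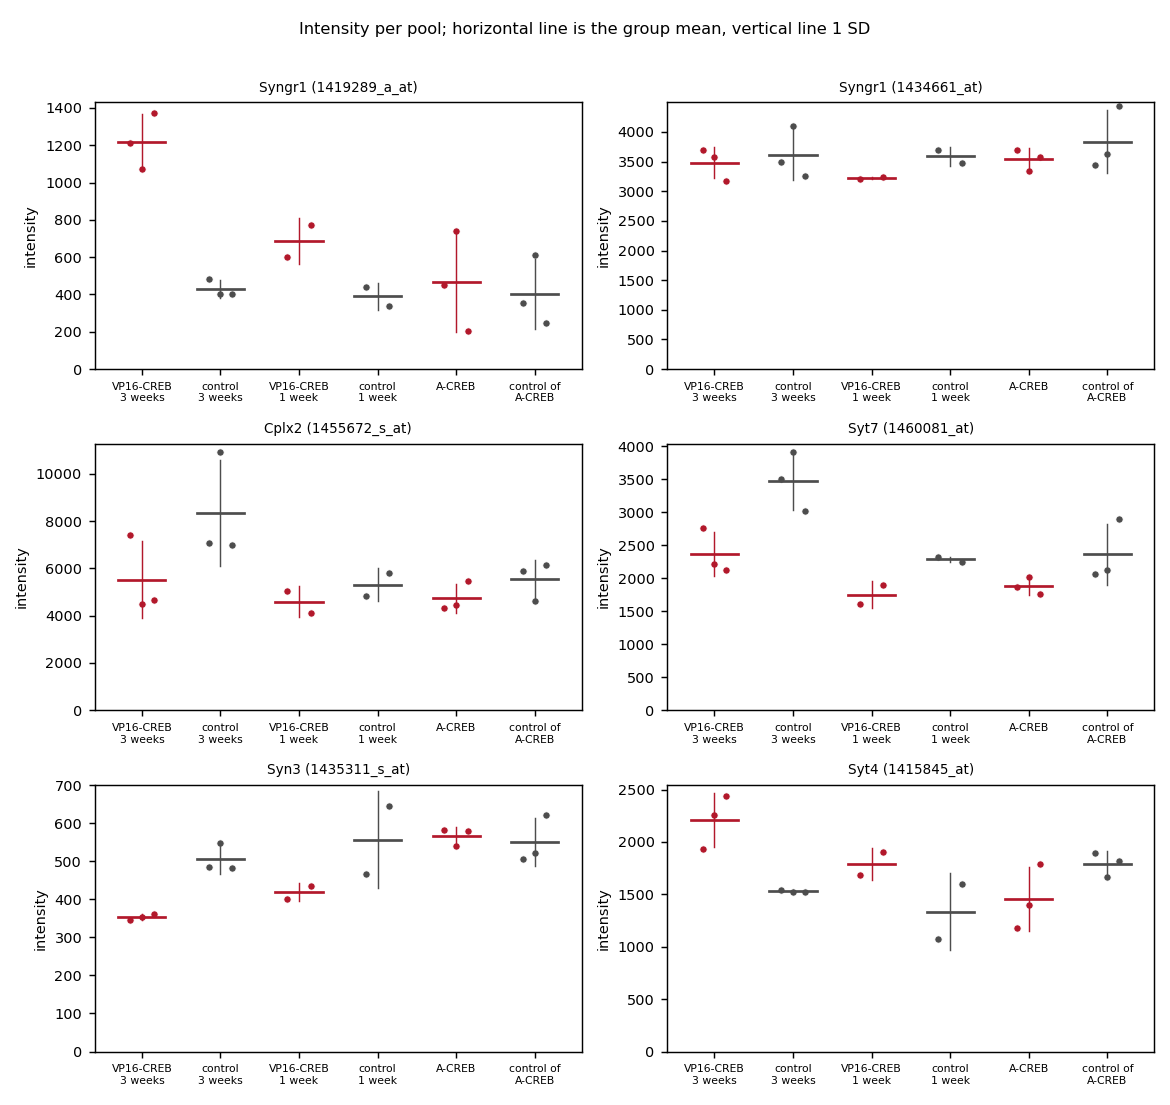
Intensity per pool (y axis, linear, from 0) of 6 probe sets of Syngr1, Cplx2, Syt7, Syn3 and Syt4 in the 6 groups, with the group mean (horizontal line) and 1 SD (vertical line). The 3 VP16-CREB pools at 3 weeks lie above their controls at Syngr1 1419289_a_at (1218 ± 149 against 429.7 ± 46.3) and overlap them at Syngr1 1434661_at.

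The fusion machinery comprised 9 members, with 24 probe sets that passed the filter, and none was called in any transgene comparison. Of the 9, 8 had a negative difference at 3 weeks (median -0.18), against 5 of 9 at 1 week (median -0.048) and 6 of 9 in A-CREB mice (median -0.039). Cplx2, which encodes complexin 2, a protein that holds the SNARE complex ready for calcium, had the largest difference of the 38 members at 3 weeks, each at its probe set of highest mean. Its probe set 1455672_s_at read 7398, 4497 and 4654 in the VP16-CREB pools, against 7078, 10916 and 7000.0 in the control pools. The pools overlapped, because VP16-CREB replicate 1 lay among the controls and control replicate 2 far above the rest. The log2 difference was -0.60 (SE 0.23, adjusted p = 0.229), and all 3 Cplx2 probe sets were negative at 3 weeks (-0.38 to -0.60), at 1 week and in A-CREB mice. Cplx1, for complexin 1, was at -0.016 at 3 weeks, with a 95% interval of -0.40 to 0.37.

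Snap25, which encodes the plasma membrane SNARE that contributes a pair of helices to the complex, read 32118, 19914 and 21151 in the VP16-CREB pools, against 23447, 34493 and 24889.8 in the control pools at probe set 1416828_at at 3 weeks off dox. The highest value of each group was far above its other pools, and the groups overlapped (log2 difference -0.19 (SE 0.21, adjusted p = 0.826)). At 1 week it read 22911 and 21910.1 in the VP16-CREB pools, against 19375 and 21705 in the control pools, with a log2 difference of 0.13, and in A-CREB mice the log2 difference was 0.052. Stx1a, for the other plasma membrane SNARE syntaxin 1A, had -0.19, 0.00017 and 0.080 in the same 3 comparisons. The vesicle SNARE genes did not pass the test either: Vamp2 had log2 differences of 0.027, -0.29 and -0.20, and Vamp1 had -0.18, -0.18 and -0.20. The other Vamp2 probe set, 1420833_at, was at 0.46, 0.29 and -0.40, and the other Vamp1 probe set, 1421862_a_at, at -0.047, 0.60 and -0.23, so the probe sets of a gene differed in sign at 1 week.

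Nsf, the gene of the ATPase that separates spent SNARE complexes, was negative at all 3 of its probe sets that passed, at 3 weeks off dox. Probe set 1422455_s_at read 5765, 5329 and 4969.8 in the VP16-CREB pools, against 6619, 7635 and 6342 in the control pools, so all VP16-CREB pools were below all controls, with a log2 difference of -0.36 (SE 0.16, adjusted p = 0.362). At 1422456_at, its probe set of highest mean, the log2 difference was -0.23 (SE 0.15, adjusted p = 0.621). Napa and Napb, the genes of the alpha and beta SNAP adaptors that recruit NSF, were at -0.071 and -0.13 at 3 weeks, and lay between -0.11 and 0.054 at 1 week and in A-CREB mice at these probe sets.

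The 6 synaptotagmin genes, calcium sensors of release or their relatives, held the widest range of differences at 3 weeks off dox, from -0.55 to 0.45, and none was called. Syt7, the gene of a high-affinity sensor for slow and sustained release, read 2759, 2217 and 2133 in the VP16-CREB pools, against 3506, 3908 and 3027 in the control pools at probe set 1460081_at. Every VP16-CREB pool was below every control, with a log2 difference of -0.55 (SE 0.17, adjusted p = 0.0975). Its probe set 1441927_at read 669, 824 and 737 in the VP16-CREB pools, against 1096, 1069 and 1044 in the control pools. This was again without overlap (-0.52 (SE 0.15, adjusted p = 0.0795)), as was the probe set 1439633_at (-0.58 (SE 0.23, adjusted p = 0.246)). The fourth Syt7 probe set, 1423012_at, had intensities of 48.3 to 104 in that cohort and a log2 difference of 0.17. At 1 week off dox probe set 1460081_at read 1613 and 1895 in the VP16-CREB pools, against 2318 and 2255 in the control pools, lower without overlap (-0.39 (SE 0.20, adjusted p = 1)), and in A-CREB mice 1867, 2016 and 1761 in the A-CREB pools, against 2067, 2131 and 2899 in the control pools, also lower without overlap (-0.31 (SE 0.17, adjusted p = 1)).

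Syt4, on chromosome 18, encodes a synaptotagmin that binds calcium poorly and whose transcript is known to respond to activity. Probe set 1415845_at read 1931, 2260.3 and 2439.6 in the VP16-CREB pools, against 1540.1, 1526 and 1525 in the control pools at 3 weeks off dox. All VP16-CREB pools were above all controls, with a log2 difference of 0.52 (SE 0.18, adjusted p = 0.168). At 1 week it read 1685 and 1901 in the VP16-CREB pools, against 1073 and 1597 in the control pools, again without overlap (0.45 (SE 0.22, adjusted p = 0.997)). In A-CREB mice it read 1179, 1395 and 1787 in the A-CREB pools, against 1898, 1667 and 1818 in the control pools, and the groups overlapped, with a log2 difference of -0.32 (SE 0.18, adjusted p = 1). The other Syt4 probe set, 1415844_at, had log2 differences of 0.45 at 3 weeks, 0.35 at 1 week and 0.13 in A-CREB mice, and its value at 1 week was 0.0028 without VP16-CREB replicate 2.

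Syt1, the gene of the main fast calcium sensor of forebrain terminals, read 18844, 12659 and 11704 in the VP16-CREB pools, against 14889, 23523 and 15453 in the control pools at probe set 1433884_at at 3 weeks off dox, and the groups overlapped (log2 difference -0.32 (SE 0.21, adjusted p = 0.612)). All 4 Syt1 probe sets were negative at 3 weeks (-0.28 to -0.62), and all 4 were positive at 1 week (0.058 to 0.39). Syt2, the fast sensor known best from hindbrain and interneuron terminals, had -0.23 at 3 weeks, 0.29 at 1 week and 0.066 in A-CREB mice, at intensities of 137 to 297. Syt5 had 0.0059, -0.0076 and -0.31. Syt11, whose protein lacks calcium binding, had -0.069, -0.12 and 0.051, and its 5 probe sets ran from -0.20 to 0.086 over the 3 comparisons.

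Of the synapsins, which tether vesicles in the reserve pool, Syn2 and Syn3 had negative differences at 3 weeks off dox, at their probe sets of highest mean, that did not reach the threshold, and Syn1 was close to 0. Syn3 read 345, 352 and 362 in the VP16-CREB pools, against 485, 549 and 482 in the control pools at probe set 1435311_s_at. The VP16-CREB pools lay in a narrow range below all controls, with a log2 difference of -0.50 (SE 0.14, adjusted p = 0.0763). It was called with 1 probe set per gene in the fit (adjusted p = 0.0379), after quantile normalization (0.0205), with only the 6 arrays compared (0.0464) and with array weights (0.00275), but not under the main setting. At 1 week it read 401 and 435 in the VP16-CREB pools, against 468 and 646 in the control pools, lower without overlap, and this was the 1 member probe set with an unadjusted p under 0.05 there (log2 difference -0.39 (SE 0.18, adjusted p = 0.916), unadjusted p = 0.0447). The probe set 1435310_at was negative too, at -0.51 at 3 weeks and -0.47 at 1 week, while 1421248_at, at intensities of 48.6 to 178.0 in the 3-week cohort, went the other way (0.38 and 0.36). In A-CREB mice the log2 difference of 1435311_s_at was 0.049, with a 95% interval of -0.26 to 0.36.

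All 5 Syn2 probe sets that passed the filter were negative at 3 weeks (-0.26 to -0.40). The probe set 1428460_at read 4979.9, 4904 and 4849 in the VP16-CREB pools, against 6262, 6435 and 6063 in the control pools, without overlap, with a log2 difference of -0.35 (SE 0.15, adjusted p = 0.317). Syn1, an X-linked gene, read 5643, 5211 and 5236 in the VP16-CREB pools, against 5266, 5785 and 5523 in the control pools, and the groups overlapped (log2 difference -0.043, 95% interval -0.47 to 0.39). Its log2 difference was 0.018 at 1 week and -0.24 in A-CREB mice.

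Among the other vesicle membrane proteins, whose genes are Syp (synaptophysin), Syngr3 (synaptogyrin 3) and the Sv2 family (transporter-like glycoproteins), differences were small. Syp, also X-linked, had log2 differences of -0.075 at 3 weeks, -0.19 at 1 week and -0.20 in A-CREB mice. Sv2a had 0.018, 0.071 and -0.20, and Sv2b had -0.21, -0.20 and 0.16, at their probe sets of highest mean. Syngr3 had 0.076 at 3 weeks, with a 95% interval of -0.27 to 0.43.

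The vesicular glutamate transporters load vesicles with glutamate, Slc17a7 (VGLUT1) mainly in cortical and hippocampal principal neurons and Slc17a6 (VGLUT2) mainly in subcortical ones. Slc17a7 read 3436, 2974 and 3398 in the VP16-CREB pools, against 3412, 4425 and 2959.5 in the control pools at 3 weeks off dox, with overlap, and a log2 difference of -0.12 (SE 0.19, adjusted p = 0.901). In A-CREB mice it read 3909, 3435 and 2522 in the A-CREB pools, against 4474, 3646 and 4728 in the control pools. The groups overlapped there too, with a log2 difference of -0.39 (SE 0.19, adjusted p = 1) and an unadjusted p of 0.0596. Slc17a6 varied more between pools of a group: probe set 1428379_at read 739.7, 933 and 1019.8 in the VP16-CREB pools, against 686, 642 and 961 in the control pools at 3 weeks and 705, 1398 and 1189 in the A-CREB pools, against 1001, 2008 and 669.6 in the control pools in the A-CREB cohort. Its log2 differences were 0.24 and -0.066, with wide 95% intervals of -0.54 to 1.02 and -0.85 to 0.72.

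The active zone scaffolds and the Rab3 GTPases, which place vesicles at release sites, comprised 8 members with 18 probe sets, none called. Pclo, the gene of the giant scaffold piccolo, read 3684, 3276 and 2624 in the VP16-CREB pools, against 3846, 4911 and 3867 in the control pools at probe set 1419392_at at 3 weeks, lower without overlap, with a log2 difference of -0.40 (SE 0.19, adjusted p = 0.372). Its differences were -0.022 at 1 week and 0.0068 in A-CREB mice. Bsn, for the related scaffold bassoon, was at -0.19, without overlap, and -0.18 and -0.040 in the other comparisons. Rims1 and Rims2, which link vesicles to calcium channels, were at -0.11 and -0.025 at 3 weeks, and Unc13a, which primes vesicles, at 0.063.

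Rab3a, the most studied Rab of synaptic vesicles, read 10847, 14259 and 14977 in the VP16-CREB pools, against 15580.5, 15152 and 15810.2 in the control pools at probe set 1459980_x_at at 3 weeks. All VP16-CREB pools were below all controls by a small margin, with a log2 difference of -0.23 (SE 0.17, adjusted p = 0.672), while its other probe set, 1422589_at, was at 0.031. Rab3b read 1612, 1348 and 1379 in the VP16-CREB pools, against 1263, 1236 and 1269 in the control pools at 3 weeks, higher without overlap (0.20 (SE 0.18, adjusted p = 0.765)). In A-CREB mice Rab3b read 1341, 1614 and 1137 in the A-CREB pools, against 1121, 1040.0 and 1120.0 in the control pools, also higher without overlap (0.30 (SE 0.18, adjusted p = 1)), and this was the only member probe set with that order there (1.11%, against 3.54% of all probe sets). Rab3c was at -0.19, -0.10 and 0.027 in the 3 comparisons.

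The endocytic genes comprised 5 members with 11 probe sets, none called, with a median log2 difference of -0.22 at 3 weeks, -0.067 at 1 week and 0.054 in A-CREB mice. Sh3gl2, which encodes endophilin A1, a membrane-bending protein that recruits synaptojanin, read 6268, 4908 and 4749 in the VP16-CREB pools, against 6045, 8887 and 6267 in the control pools at probe set 1418791_at at 3 weeks. The highest VP16-CREB pool reached the lower controls, and the log2 difference was -0.40 (SE 0.17, adjusted p = 0.298), and -0.22 without control replicate 2. Amph, for amphiphysin, was at -0.23, without overlap, and Dnm1, for the neuronal dynamin that cuts the vesicle neck, at -0.22. Synj1, the lipid phosphatase that sheds the clathrin coat, was at -0.093, with a 95% interval of -0.43 to 0.24.

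Bin1, on chromosome 18, encodes amphiphysin 2, which is also made outside neurons. In A-CREB mice its probe set 1425532_a_at read 1533, 1570.0 and 1594 in the A-CREB pools, against 1957, 1929 and 2882 in the control pools. All A-CREB pools were below all controls, and control replicate 3 was the highest. The log2 difference was -0.50 (SE 0.16, adjusted p = 1), the 1 member difference with an unadjusted p under 0.05 there (0.00884), and -0.31 without control replicate 3. In VP16-CREB mice it was 0.084 at 3 weeks and -0.12 at 1 week.

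Markers of other cell types moved in the same pools. In bulk samples, fewer cells of a type and less RNA per cell cannot be told apart. At 3 weeks off dox the median log2 deviation of the 38 vesicle cycle genes from the mean of the controls was 0.033, -0.21 and -0.18 in the VP16-CREB pools and -0.061, 0.13 and -0.081 in the control pools. The 12 pan-neuronal markers gave 0.025, -0.23 and -0.28 in the VP16-CREB pools and -0.13, 0.21 and -0.075 in the control pools. In both lists VP16-CREB replicate 1 and control replicate 2 were the highest of their groups, and the groups overlapped. These arrays also had the highest maximum intensities of that cohort, 46655.5 and 44613.6, against 27434 to 31018 on its others. The oligodendrocyte gene Mbp was highest in the same pools (33041 and 32837), but the oligodendrocyte list was highest in control replicate 3 (0.085). This order was thus not limited to neuronal genes, and its part in the members' differences was not tested.

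In 6 of the other marker lists the pools did not overlap at 3 weeks. The 12 dentate granule markers were at -1.29 to -1.10 in VP16-CREB pools and -0.0086 to -0.0012 in controls, the 7 CA1 markers at -0.55 to -0.43 in VP16-CREB pools and -0.048 to 0.024 in controls, and the 8 CA3 markers at -0.40 to -0.11 in VP16-CREB pools and -0.028 to 0.029 in controls. The 14 microglial markers were at 2.11 to 2.46 in VP16-CREB pools and -0.015 to 0.041 in controls, the 12 astrocyte markers at 0.76 to 0.83 in VP16-CREB pools and -0.020 to 0.036 in controls, and the 12 interneuron markers at 0.14 to 0.34 in VP16-CREB pools and -0.066 to 0.020 in controls. The pools did overlap for the 9 oligodendrocyte markers, at -0.039 to 0.13 in VP16-CREB pools and -0.029 to 0.085 in controls. Summed intensities were 67708 to 80270.5 in VP16-CREB pools and 16685 to 17372 in controls for microglia. They were 9059.9 to 10169 in VP16-CREB pools and 18219 to 18432 in controls for dentate granule markers, and 192709 to 235283 in VP16-CREB pools and 215988 to 267223 in controls for the vesicle cycle genes. Among the markers 13 of 14 microglial, 5 of 12 astrocyte and 2 of 12 interneuron genes were called higher and 9 of 12 dentate granule and 1 of 8 CA3 genes lower, and no pan-neuronal, CA1 or oligodendrocyte marker was called. Their part in the differences of the vesicle cycle genes was not tested.

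**Figure D3:**
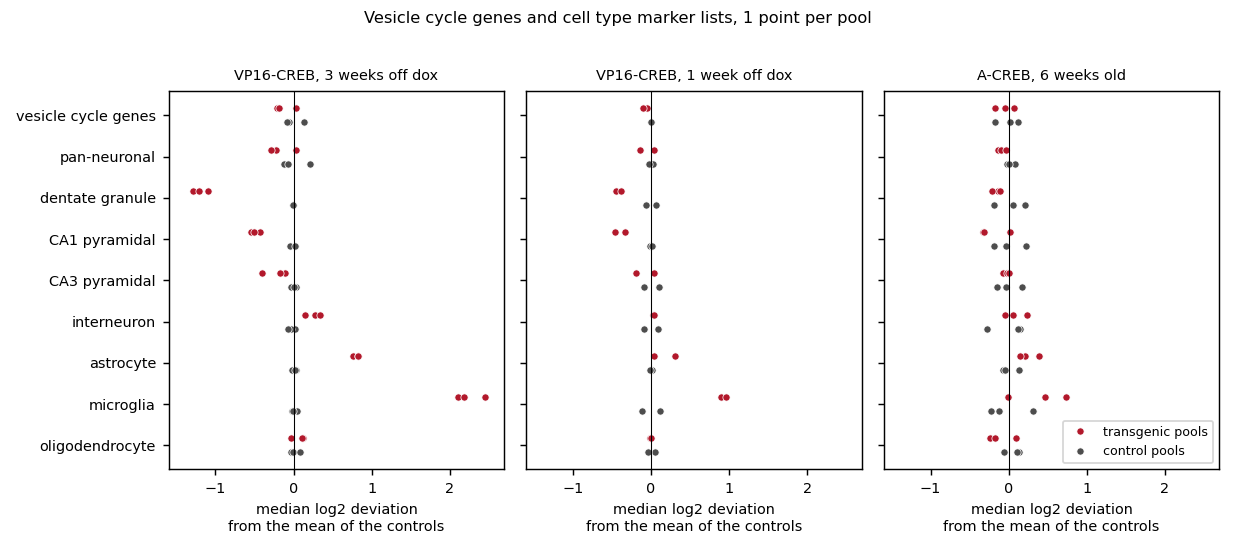
Median log2 deviation from the mean of the control pools (x axis) of the vesicle cycle genes and of 8 cell type marker lists (rows), 1 point per pool, transgenic pools above control pools in each row, for the 3 comparisons. At 3 weeks off dox the vesicle cycle genes overlap between VP16-CREB and control pools, while microglial markers lie at 2.11 to 2.46 and dentate granule markers at -1.29 to -1.10 in the VP16-CREB pools.

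At 1 week off dox the vesicle cycle genes were at -0.054 and -0.11 in the VP16-CREB pools and at -0.0020 and 0.0020 in the control pools. With 2 control pools, deviations from their mean mirror each other in every gene, so these control values do not measure how closely the pools agreed. The pan-neuronal markers were at 0.037 and -0.14 in the VP16-CREB pools and 0.026 and -0.026 in the control pools, and overlapped. The microglial markers were then at 0.90 and 0.97 in the VP16-CREB pools and the dentate granule markers at -0.45 and -0.38. In the A-CREB cohort the vesicle cycle genes were at -0.042, -0.17 and 0.067 in A-CREB pools and 0.015, -0.17 and 0.12 in control pools, and the groups overlapped.

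The promoters that hold a full CRE are shown because VP16-CREB acts at that element and A-CREB keeps CREB from DNA. The promoter of Syngr1 is shown as that of the gene with the called probe set. RefSeq promoter windows of GRCm38.p6, 250 bases before to 50 after the annotated start, were held for 30 of the 39 genes. The full CRE, TGACGTCA, was found in the windows of 3 of the 30 genes (10%), against 2.03% of all 27025 genes with a window, and the CRE half-site TGACG, sought on both strands and contained in each full CRE, in 11 of the 30 (36.7%), against 23% of all genes. The full CRE genes were Napa (chr7:16098330-16098629, plus strand), Sh3gl2 (chr4:85205206-85205505, plus strand) and Syn1 (chrX:20920869-20921168, minus strand), where the element began 7, 37 and 159 bases before the annotated start. The Syngr1 window (chr15:80091084-80091383, plus strand) held neither. Each window is given 5' to 3' on the gene's strand, with the bases of a half-site or full CRE in capitals.
Napa: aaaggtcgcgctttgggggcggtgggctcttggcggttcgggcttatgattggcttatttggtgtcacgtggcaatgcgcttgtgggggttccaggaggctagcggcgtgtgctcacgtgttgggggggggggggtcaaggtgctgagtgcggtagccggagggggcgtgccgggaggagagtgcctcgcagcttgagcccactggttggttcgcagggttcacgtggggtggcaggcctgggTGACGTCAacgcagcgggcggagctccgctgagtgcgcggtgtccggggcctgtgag
Sh3gl2: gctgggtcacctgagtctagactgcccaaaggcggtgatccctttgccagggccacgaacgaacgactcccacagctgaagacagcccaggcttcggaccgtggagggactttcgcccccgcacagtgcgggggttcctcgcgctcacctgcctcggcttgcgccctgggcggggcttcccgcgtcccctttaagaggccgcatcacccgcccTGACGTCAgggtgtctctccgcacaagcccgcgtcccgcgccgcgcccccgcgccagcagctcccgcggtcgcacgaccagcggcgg
Syn1: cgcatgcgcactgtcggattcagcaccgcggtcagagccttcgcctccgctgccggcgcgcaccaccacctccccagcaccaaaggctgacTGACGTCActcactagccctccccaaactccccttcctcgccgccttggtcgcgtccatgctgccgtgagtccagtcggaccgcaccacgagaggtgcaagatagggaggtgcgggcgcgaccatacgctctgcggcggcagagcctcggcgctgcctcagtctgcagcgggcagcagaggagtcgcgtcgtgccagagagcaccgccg
Syngr1: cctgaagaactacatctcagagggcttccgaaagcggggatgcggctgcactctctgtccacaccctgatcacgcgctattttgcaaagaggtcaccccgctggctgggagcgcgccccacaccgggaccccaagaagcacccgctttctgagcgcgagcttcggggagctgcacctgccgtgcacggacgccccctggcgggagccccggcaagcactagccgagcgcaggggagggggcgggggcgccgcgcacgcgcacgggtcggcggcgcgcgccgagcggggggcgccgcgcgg

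The full CRE genes lay within the range of the genes without the element at 3 weeks off dox. Their log2 differences were -0.071 for Napa, -0.40 for Sh3gl2 and -0.043 for Syn1, and in A-CREB mice -0.091, 0.054 and -0.24. The 11 genes with a half-site had a median of -0.071 at 3 weeks (range -0.40 to 0.24), and the 18 measured genes with a window and no half-site a median of -0.19 (range -0.60 to 0.018). These are descriptions of letters in 1 window per annotated start, without a test.

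Other genes of the pathway were taken from 4 lists of 106 genes for release, the active zone, vesicle proteins and endocytosis, of which 96 had a probe set that passed. Of the 96, 3 had a probe set called higher and 3 called lower at 3 weeks, and the median log2 difference was -0.087. These were 4 higher and 5 lower of 230 probe sets (1.74% and 2.17%, against 3.28% and 0.651% of all probe sets). At 1 week and in A-CREB mice 0 of 96 were called by limma, with 14 and 12 of 230 probe sets at an unadjusted p under 0.05 (6.09% and 5.22%, against 5.27% and 4.33% of all probe sets). At 3 weeks there were 34 (14.8%, against 13.5% of all).

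The 3 genes called lower act in release or on the vesicle. Stxbp6 encodes amisyn, a SNARE-binding protein that is thought to restrain fusion, and it also stands on the dentate granule list used here. Its probe set 1435396_at read 1108, 1181 and 1160.0 in the VP16-CREB pools, against 3573, 3138 and 3418 in the control pools. The VP16-CREB pools lay far below all controls, and the gene fell 2.92-fold (log2 difference -1.54 (SE 0.20, adjusted p = 0.000326)). Doc2b, a high-affinity calcium sensor for spontaneous release, read 796, 589 and 505 in the VP16-CREB pools, against 1448, 1934 and 1546 in the control pools at probe set 1420667_at. It fell 2.61-fold (log2 difference -1.38 (SE 0.27, adjusted p = 0.00978)). Synpr, which encodes synaptoporin, a relative of synaptophysin known to mark mossy fibre terminals, read 2540.5, 2550.3 and 2495 in the VP16-CREB pools, against 3955, 4183 and 4528 in the control pools. It fell 1.66-fold (log2 difference -0.74 (SE 0.18, adjusted p = 0.0341)).

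The 3 genes called higher were Slc32a1, Syngr2 and Cltb. Slc32a1, the vesicular transporter of GABA and glycine and 1 of the interneuron markers used here, read 2346, 2431 and 2618 in the VP16-CREB pools, against 1033, 1104 and 993 in the control pools. All VP16-CREB pools were above all controls, a 2.35-fold rise (log2 difference 1.23 (SE 0.12, adjusted p = 3.34e-05)). Syngr2, the synaptogyrin of non-neuronal cells, read 503, 609 and 780.5 in the VP16-CREB pools, against 234, 283 and 268 in the control pools at probe set 1417081_a_at. It rose 2.33-fold (log2 difference 1.22 (SE 0.22, adjusted p = 0.00568)). Cltb, for a clathrin light chain, was called at 1 of its 3 probe sets, 1460740_at (0.59 (SE 0.14, adjusted p = 0.0299)), and not at 1453063_at (0.48 (SE 0.17, adjusted p = 0.176)) or 1456797_at (-0.24).

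In the other 2 comparisons of a transgene with its littermates, none of the 6 was called. At 1 week off dox the log2 differences were -0.67 for Stxbp6, -0.81 for Doc2b, -0.27 for Synpr, 0.36 for Slc32a1 and 0.24 for Syngr2. Cltb 1460740_at was at 0.33 there. In A-CREB mice Doc2b read 822, 802 and 720.3 in the A-CREB pools, against 1933, 867 and 1959 in the control pools, lower without overlap (-0.92 (SE 0.27, adjusted p = 0.979)), and Stxbp6 was at -0.43. The others were closer to 0 there, with Synpr at -0.0074, Slc32a1 at 0.074, Syngr2 1417081_a_at at -0.019 and Cltb 1460740_at at -0.17.

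**Figure D4:**
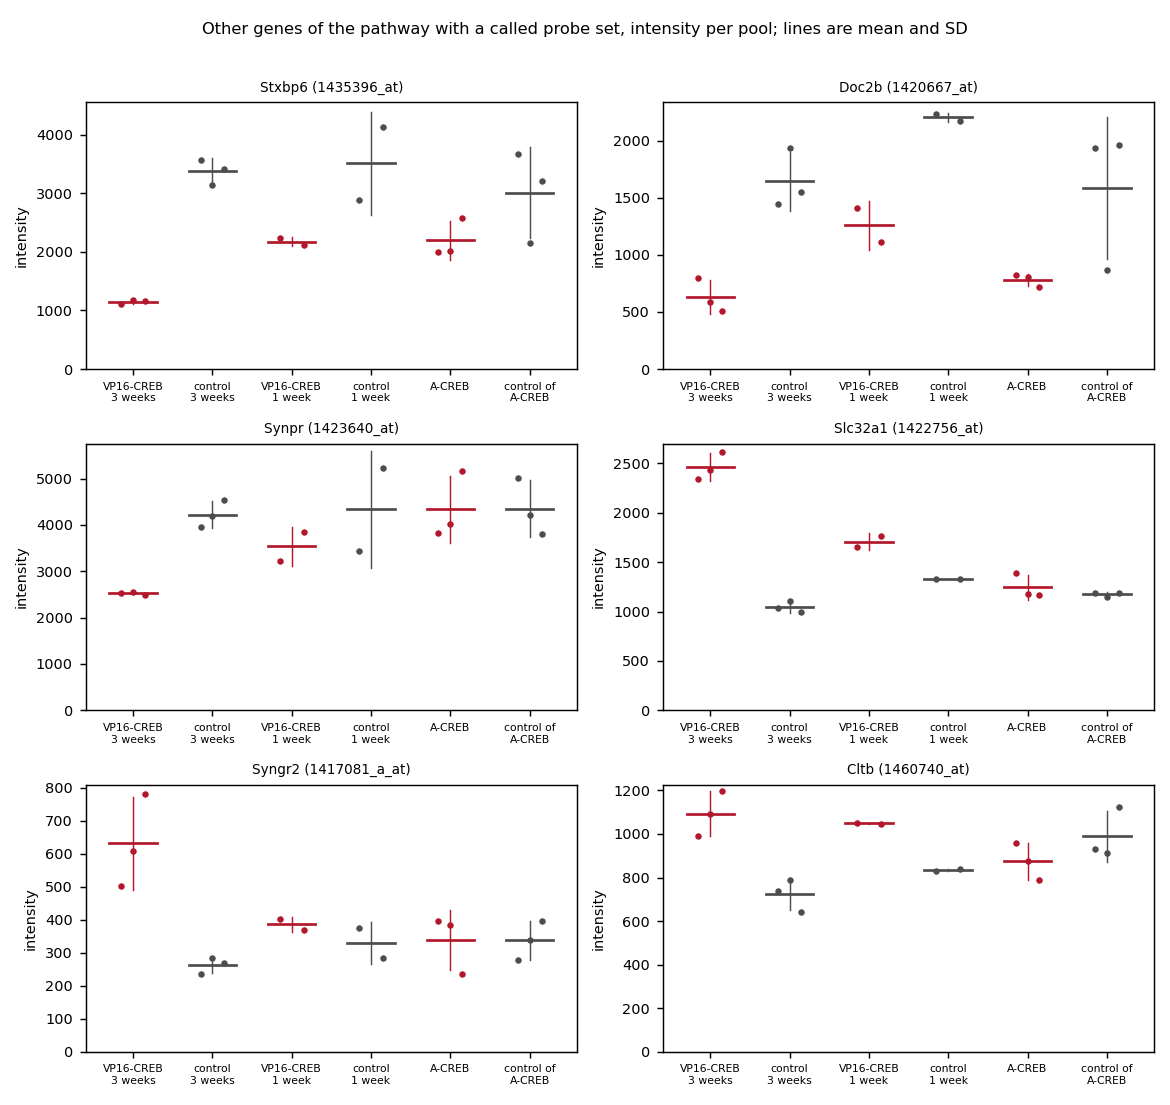
Intensity per pool (y axis, linear, from 0) of Stxbp6, Doc2b, Synpr, Slc32a1, Syngr2 and Cltb in the 6 groups, with mean (horizontal line) and 1 SD (vertical line). At 3 weeks off dox the VP16-CREB pools lie below all controls for Stxbp6, Doc2b and Synpr and above all controls for the other 3.

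The effects themselves were then compared, as 1 difference from littermates minus another in the same model, and these differences share no pools. Between VP16-CREB at 3 weeks and at 1 week, 0 of 90 member probe sets passed limma's test, against 0.0037% of all probe sets (1 of 27044), with 1 at an unadjusted p under 0.05 (1.11%, against 4.99% of all; Syt1 1438282_at, -1.01). Between VP16-CREB at 3 weeks and A-CREB, 0 of 90 passed, against 0.887% of all (240 of 27044), with 5 at an unadjusted p under 0.05 (5.56%, against 8.69%). These were probe sets of Syngr1 (1.36 (SE 0.54, adjusted p = 0.442)), Syt4 1415845_at (0.84 (SE 0.25, adjusted p = 0.222)), Bin1 (0.58 (SE 0.23, adjusted p = 0.437)), Syt7 1441927_at (-0.63 (SE 0.21, adjusted p = 0.295)) and Syn3 (-0.55 (SE 0.20, adjusted p = 0.37)). So for Syngr1 a difference between the effects of both transgenes, or between 3 weeks and 1 week (0.67, 95% interval -0.62 to 1.97), was not shown.

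The control groups give the members' levels without a transgene. Control pools of 6 weeks from the VP16-CREB cohort differed from control pools of 3 weeks at 9 of 90 member probe sets (10%), against 18% of all probe sets (4866 of 27044). Of the 9, 6 were higher and 3 lower, against 13.7% and 4.25% of all probe sets in the same directions. With the arrays centred on the median, which moved all probe sets together by -0.12 in this comparison, 3 were higher and 5 lower, so the balance depends on the scaling. The 6-week controls of the VP16-CREB cohort differed from the 6-week controls of the A-CREB cohort at 8 of 90 (8.89%), against 17.5%. Of the 8, 4 were higher and 4 lower, and with the arrays centred on the median 3 were higher and 5 lower. Shares of all probe sets by direction are not given for this comparison, nor for the centred arrays. These counts by direction therefore do not set the members apart from the array. Between the 6-week controls of the A-CREB cohort and the 3-week controls 0 of the 90 were called by limma (0 of 27044, 0%), and 1 had an unadjusted p under 0.05 (1.11%, against 5.56% of all). These comparisons share control pools. Age, cohort and dox history cannot be told apart between control groups, and the arrays of the cohort at 3 weeks off dox also had the higher median intensity. Markers of the choroid plexus, a tissue beside the hippocampus, moved with these comparisons: 7 of 8 were called lower in the 6-week controls of the VP16-CREB cohort than in 3-week controls and 6 of 8 lower than in the A-CREB cohort's controls. Their summed intensity was 15311 to 37413 in the 6-week controls of the VP16-CREB cohort, against 35501 to 44230 in 3-week controls and 32610 to 44185 in the A-CREB cohort's controls. Of 9 oligodendrocyte markers, 2 and 4 were called lower in the same comparisons. Their part in the members' differences was not tested.

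The largest of these differences were at single probe sets of a gene. Syt1 probe set 1438282_at read 1035, 1132 and 1039.8 in the 6-week controls of the VP16-CREB cohort, against 61.8 and 119 in 3-week controls and 101, 109 and 78.4 in the A-CREB cohort's controls. It was 11.2-fold and 10.2-fold higher (adjusted p = 3.23e-06 and 1.15e-06), and no control pool of either other group came near. The probe set 1433884_at of the same gene read 14889, 23523 and 15453, against 17158 and 16532 and 19694, 17129.9 and 17218, with log2 differences of 0.060 and -0.034. Nsf showed the same split, with probe set 1457205_at called higher (adjusted p = 9.28e-05 and 1.62e-05) at 289, 394 and 268, against 40.8 and 23.6 in 3-week controls and 39.6, 13.3 and 31.3 in the A-CREB cohort's controls. These low values leave the size of the difference to the pseudocount, with log2 differences of 3.33 and 3.62 with none and 2.58 and 2.71 with 25. Nsf 1457205_at passed the filter on low intensity only through the cohort at 3 weeks off dox, where it was high. The filter and the call thus rest on the same arrays. With no filter it was still called by limma (adjusted p = 0.000331 and 6.43e-05). The Nsf probe set 1422456_at had log2 differences of -0.17 and -0.12.

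Bin1 1444120_at (log2 1.63 against 3-week controls), Syt7 1460081_at (0.60), Unc13a (0.82) and Syt11 1455176_a_at (0.55) were also called higher in the 6-week controls of the VP16-CREB cohort. Bin1 1444120_at was not among the calls with the filter on the mean. With no filter limma called it against 3-week controls (adjusted p = 0.007) and against the A-CREB cohort's controls (adjusted p = 0.0166). Called lower were Syt11 1429314_at (-0.53), Syt11 1456464_x_at (-0.54) and Napa 1416192_at (-0.44). Syt11 was thus called in opposite directions at different probe sets, but with the arrays centred on the median only the negative probe sets of Syt11 were called (-0.65 and -0.66). Against the A-CREB cohort's controls, Stx1a 1437390_x_at (-0.56) and Pclo 1452423_at (-0.86) were called lower as well.

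**Figure D5:**
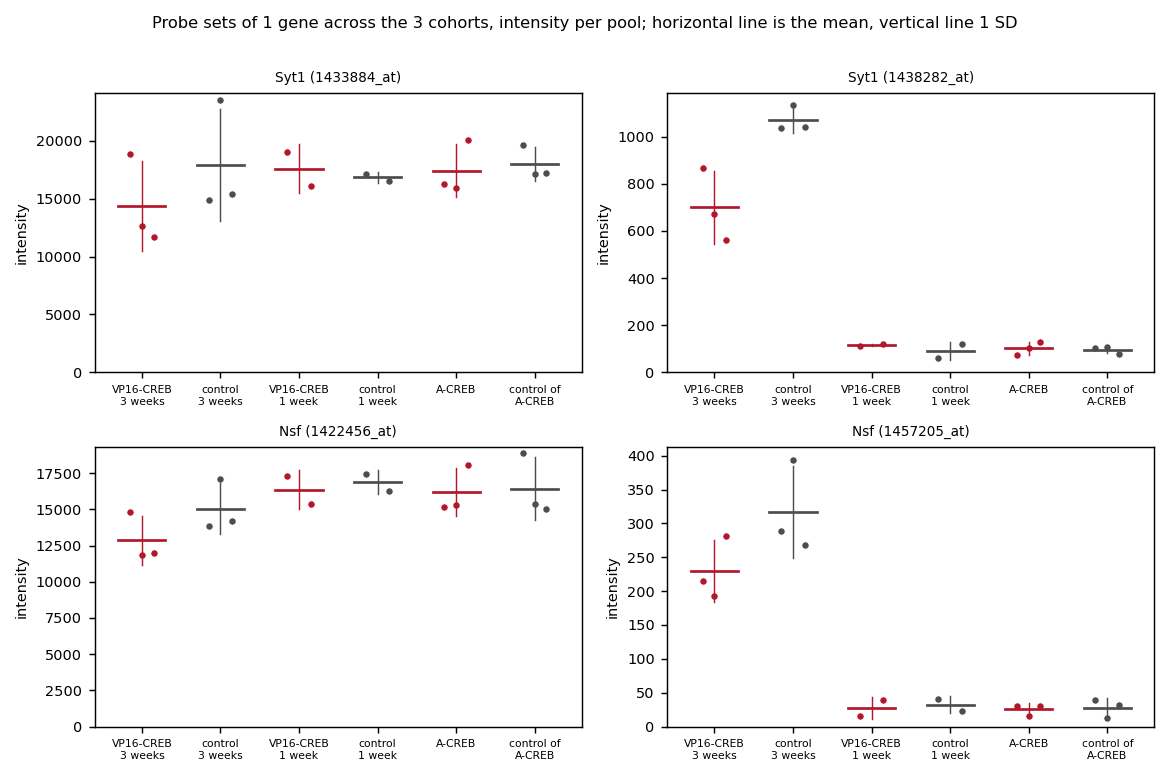
Intensity per pool (y axis, linear, from 0) of a pair of probe sets each of Syt1 and Nsf in the 6 groups, with mean (horizontal line) and 1 SD (vertical line). Syt1 1438282_at and Nsf 1457205_at are high in all 6 pools of the cohort at 3 weeks off dox, VP16-CREB and control, and low in the other 10, while Syt1 1433884_at and Nsf 1422456_at overlap between cohorts.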

How the data were processed

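RNA of 16 pools of mouse hippocampus was measured on Affymetrix arrays. The deposited value of a probe set is a linear intensity that the authors computed with MAS5, per the submitters' processing notes, version not given in the sources used here; the mean after trimming 2% at each end was 500 on every array. MAS5 subtracts mismatch signal, so low intensities are noisy, and the number of arrays limits the precision. The 64 control probe sets were left out, log2 was taken of the intensity plus 10, and probe sets above the median of all values (99.1) on at least 2 arrays were kept (27044, 60%). Symbols came from the platform annotation, updated through gene IDs (34945 probe sets with 1 symbol, 932 with several, 9160 with none).

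All 16 arrays entered 1 model with a coefficient per group in limma 3.58.1 (R 4.3.3, data.table version 1.17.8; figures in Python 3.11.15 with matplotlib 3.10.9), with lmFit and eBayes (two-sided, 10 residual and 3.44 prior degrees of freedom). In each of 8 comparisons p-values were adjusted over all 27044 probe sets by Benjamini and Hochberg's method, and an adjusted p under 0.05 was a call. For 1 value per gene the probe set of highest mean was used. Intervals are 95%. Separate litters or extractions are not stated for the pools of a group, so p-values measure the spread between pools. The method was tested on simulated data.

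Genes with values per pool were those called in any comparison, the 5 largest differences each way per transgene comparison, the 6 of highest intensity, those with discordant probe sets, up to 3 called genes per other list and direction, and Creb1 and Pdyn as checks. The members and lists were chosen with earlier results of these data known. Replicate numbers were not taken to pair pools, although both replicate 1 pools of the A-CREB cohort were male. Correlations of same-numbered pools' deviations were -0.16, -0.23 and 0.22 at 3 weeks and -0.052, 0.41 and 0.27 in the A-CREB cohort. Unlike-numbered pools had -0.28 to 0.34 at 3 weeks and -0.37 to 0.053 in the A-CREB cohort. At 1 week both same-numbered pairs had 0.15, which is 1 value by construction, because the deviations mirror each other there. Whether numbers pair pools in the A-CREB cohort was not settled. The alternatives were quantile normalization, median centring of the arrays, no pseudocount or one of 25, no filter or one on the mean, only the arrays compared, trend and robust variances, array weights, 1 probe set per gene, a replicate block, each pool left out in turn, and the A-CREB cohort without its replicate 1 pools. The cohort at 3 weeks without VP16-CREB replicate 1 and control replicate 2 was added after seeing the data.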

Additional observations from a re-analysis of the deposited data

Results flagged for a closer look

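Only the probe sets named for the transgene comparisons were searched for these results. Among them, those of 3 genes outside the 39 had a VP16-CREB effect at 3 weeks that differed from the A-CREB effect, by limma's test of the difference itself. Over all probe sets 240 of 27044 (0.887%) passed that test, so many genes not named here differed too. Pdyn, the prodynorphin gene and a known CREB target, read 1245, 1029 and 1195 in the VP16-CREB pools, against 149, 146 and 107 in the control pools at 3 weeks off dox and 103, 75.2 and 82.8 in the A-CREB pools, against 141, 117 and 121 in the control pools in the A-CREB cohort, and the difference of the effects was 3.53 on the log2 scale (adjusted p = 5.07e-05). For Creb1 1421582_a_at, 1 of 5 probe sets of the gene, the difference of the effects was 4.65 (adjusted p = 0.00299), and the other 4 did not pass that test. For Slc32a1, the GABA transporter gene of the vesicle, it was 1.16 (adjusted p = 0.00513). The VP16-CREB effect was the higher of the pair in all 3, and every VP16-CREB pool at 3 weeks was above every control. No member of the vesicle cycle genes had a difference of effects that passed.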

How the results depend on the processing

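The single member call at 3 weeks off dox, Syngr1 1419289_a_at, was lost in 9 of 17 alternative settings (adjusted p 0.000486 to 0.281) while its log2 difference stayed between 1.39 and 1.57. The count of member probe sets called at 3 weeks was 0 with no pseudocount, 0 with no filter, 0 without VP16-CREB replicate 1 and control replicate 2 together, and 0 to 0 with each pool left out in turn. It was 3 after quantile normalization, 2 with only the arrays compared and 2 with trend and robust variances. With array weights it was 16, where 14 were lower (Cplx2, Syt7, Syn2, Syn3, Syt1, Nsf and Sh3gl2) and 2 higher (Syngr1 and Syt4). The cause was not tested. Shares of all probe sets called under each setting are not given beside these counts, so the counts do not set the members apart from the array. With array weights 1 member (Syt4) also differed between the VP16-CREB and A-CREB effects. At 1 week the count was 0 to 1 with a pool left out (Syt7 1423012_at without VP16-CREB replicate 2), and the member median ran from -0.14 to -0.0063, where a lone pool is assumed to vary like the other groups. The count for 6-week controls of the VP16-CREB cohort against 3-week controls (9) was 3 with no filter, 5 with only the arrays compared and 2 with 1 probe set per gene, where fewer probe sets are tested, and 2 to 11 with a pool left out. Against the A-CREB cohort's controls (8) it was 3, 3 and 1 under the same settings, 5 without the replicate 1 pools of the A-CREB cohort and 3 to 6 with a pool left out. With the replicate number as a block, which only shares a number, the counts at 3 weeks, 1 week and in A-CREB mice were 1, 0 and 0, and those of the control comparisons 7, 0 and 7. For 46 results of named probe sets, 780 values under alternatives were set against the main setting. In 710 a call was kept with its direction, or an uncalled probe set stayed uncalled and moved by less than its SE. Uncalled differences near 0 could turn sign within these 710, as Slc17a6 did at 1 week (lowest value -0.016). A call was lost in 54 and gained in 7, while 9 uncalled values moved further and 0 called ones turned sign. Among the other pathway genes, Stxbp6 1435396_at, Slc32a1 and Syngr2 1417081_a_at kept their calls in all 18 settings, and Synpr and Cltb lost theirs in 9 each. Precision was limited by 2 or 3 pools a group and by noise at intensities near 100.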
